A study of Mus musculus with 9 samples.

Results

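Livers of mice fed high-fat (HF) diets were compared with livers of mice fed low-fat (LF) diets, over every diet pool of the study. The 8 pools were chosen by their labelled diet, 4 HF and 4 LF, out of 9 in all. The remaining pool, taken at week 0 before the diets diverged, has no HF counterpart and was left out. Each pool held liver RNA of 5 male C57BL/6J mice and was read on 1 Affymetrix Mouse Gene 1.0 ST array, which measures a transcript with short probes spread along its exons.

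Low-fat diets supplied 10% of energy as fat and high-fat diets 35%. Both existed with normal protein (NP, 15% of energy) and with high protein (HP, 50%), and each of the resulting diets (LF-NP, LF-HP, HF-NP, HF-HP) gave 1 pool after 1 week and 1 after 12 weeks. The labels give the mice an age of 13 weeks at the earlier time and 22 weeks at the later, and the later age is lower than the starting age and diet periods of the protocol add up to. All mice, LF and HF alike, had first eaten the LF-NP diet during a run-in, and all received a measured meal shortly before the liver was taken. In exchange for fat the HF diets held less carbohydrate, 50% against 75% of energy at normal protein and 15% against 40% at high protein, so more fat and less carbohydrate cannot be told apart. Pooling of 5 mice leaves the spread between single mice unmeasured, and with 1 array per diet and week the replicates of HF and LF are pools of different protein level and age.

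Dietary fat reaches the liver as fatty acids and lipoprotein remnants. The liver burns fatty acids in mitochondria and peroxisomes, a programme driven by the nuclear receptor PPARα, and makes new fatty acids mainly from carbohydrate under the transcription factors SREBP-1c and ChREBP. Cholesterol synthesis is run by SREBP-2, which is released from the endoplasmic reticulum when that membrane is poor in sterol and then switches on nearly every enzyme of the pathway together. When secretory proteins fold poorly, the endoplasmic reticulum raises its own chaperones through the unfolded protein response.

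The arrays carried a liver signal throughout. Albumin (Alb) lay between 13.72 and 14.05 on the log2 scale in the 8 pools, and the 9 measured hepatocyte markers summed to a log2 signal of 16.51 to 16.57 in the HF and 16.44 to 16.63 in the LF pools. Correlations between the diet arrays lay between 0.9926 and 0.9972, and array medians differed by at most 0.0613. No pool was set aside.

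Whether a diet richer in fat moved single liver genes was tested with limma, with fat, protein and week as terms, over 19938 genes. None of these (0%) reached an adjusted p of 0.05, and the smallest adjusted p was 0.999. There were 664 genes with an unadjusted p below 0.05, where 5% of the genes would be 997. Of these 358 were higher (1.8%) and 306 lower (1.53%) in HF pools. The typical 95% interval reached 0.175 log2 units to either side of a gene's difference. All differences below are HF minus LF on the log2 scale, from that fit, and those of single genes have adjusted p-values of 0.999 to 1.00, so they are given as measured values and not as changes.

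Cholesterol synthesis held several of the largest positive differences that had the same sign throughout. Of the 12 genes with the largest positive difference among those above the median level, with the same sign in every matched comparison of an HF with the LF pool of the same protein level and week, 4 were enzymes of that pathway (Sqle, Msmo1, Mvd and Hmgcs1). The other 8 were Sdf2l1, Pdk4, Septin11, Lpl, Syvn1, Wfdc17, Plin4 and H2-Aa. The 12 largest negative differences under the same conditions were those of Cyp26a1, Fabp5, Srebf1, Gm11437, Rrm2, Acot11, Gask1a, 4930581F22Rik, Spry4, Map2k6, Thrsp and Pitpnc1. Together 254 genes met the conditions of level, sign and an unadjusted p under 0.05, 145 of them higher and 109 lower with HF. A same sign in the 4 matched comparisons was found for 7.09% of all genes.

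Sqle encodes squalene epoxidase, which starts the conversion of squalene to sterols. Its log2 level in the HF-NP, HF-HP, HF-NP and HF-HP pools (1, 1, 12 and 12 weeks) was 8.68, 9.11, 7.99 and 8.95, and in the LF pools of the same protein levels and weeks 7.42, 8.10, 6.89 and 8.40. Each HF pool lay above its LF partner, while the HF-NP pool of 12 weeks stayed below both LF-HP pools. The difference was 0.98 ± 0.16 (SE, 95% interval 0.60 to 1.36), a 1.97-fold higher signal.

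Hmgcs1, the cytosolic HMG-CoA synthase at the head of the pathway, read 9.45, 9.46, 9.21 and 9.03 in the HF pools in that order and 8.50, 8.93, 8.57 and 8.93 in the LF pools. All 4 HF pools lay above all 4 LF pools, although the HP pools of 12 weeks differed by 0.10. The difference was 0.55 ± 0.12 (95% interval 0.26 to 0.84).

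Mvd, which decarboxylates mevalonate diphosphate to give the isoprene unit, read 7.53, 7.74, 7.51 and 7.42 with HF and 6.37, 7.18, 6.72 and 7.34 with LF. Its groups did not overlap either, and HF pools varied less (SD 0.136) than LF pools (SD 0.442). The difference was 0.65 ± 0.16. Msmo1, the sterol C4-methyl oxidase, had levels of 9.71, 9.94, 9.36 and 9.64 with HF and 8.64, 9.41, 8.48 and 9.49 with LF, a difference of 0.66 ± 0.14. Here each HF pool exceeded its partner, with the HF-NP pool of 12 weeks inside the LF range.

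**Figure D1:**
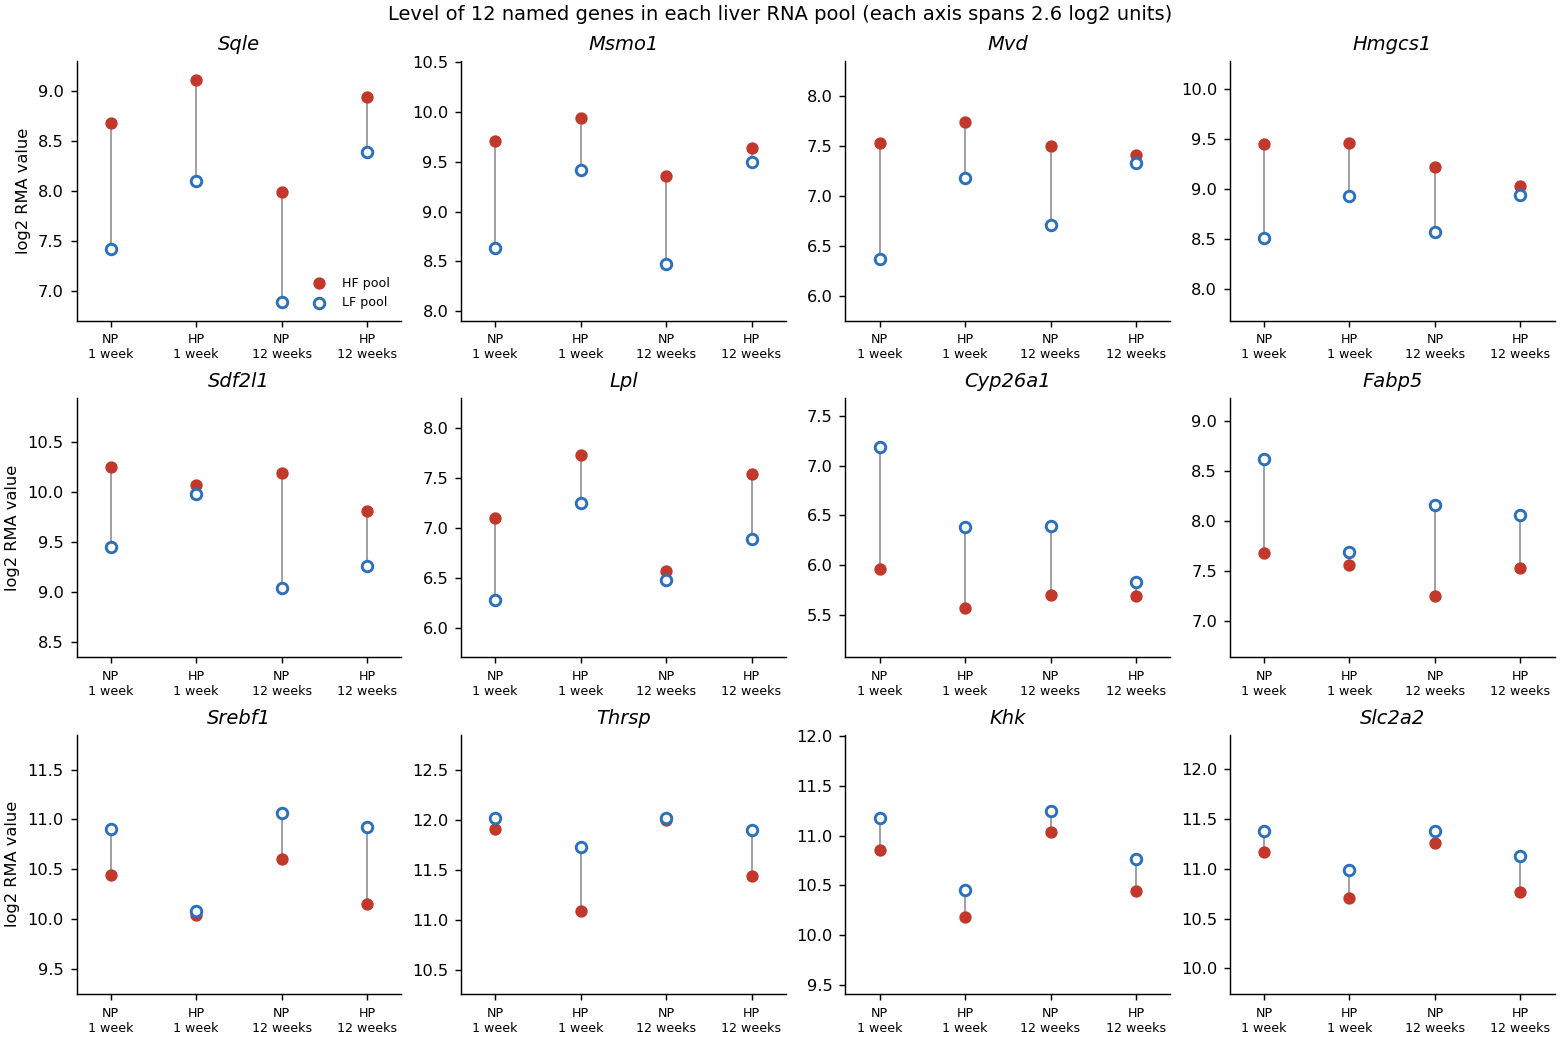
Log2 RMA value (vertical axes, each spanning 2.6 units) of 12 genes in the 8 diet pools, with filled points for HF pools, open points for LF pools and a line joining the pools of the same protein level and week. Sqle, Msmo1, Mvd and Hmgcs1 lay higher with HF in each matched comparison, and Cyp26a1, Fabp5, Srebf1, Thrsp, Khk and Slc2a2 lower.

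The whole cholesterol list held 26 genes for the enzymes, regulators and transporters of cholesterol supply, of which 21 had a value. At an unadjusted p under 0.05, 13 were higher and 0 lower with HF, against a background of 1.8% of all genes higher. The median difference was 0.32, where that of all genes tested was 0.00. In 4 members (Hmgcs1, Mvd, Fdft1 and Cyp51) every HF pool lay above every LF pool, which happened in 0.341% of all genes. The direction held along the pathway, from Mvk (0.19 ± 0.07), Idi1 (0.34 ± 0.12) and Fdps (0.32 ± 0.11) before squalene to Lss (0.46 ± 0.11), Cyp51 (0.45 ± 0.11), Nsdhl (0.37 ± 0.11) and Dhcr7 (0.31 ± 0.13) after it. Fdft1, which makes squalene, differed by 0.40 ± 0.10.

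Regulators and transporters were also on the list. Srebf2, the gene of SREBP-2, had a difference of 0.14 (95% interval −0.02 to 0.31), and Insig1, which holds the SREBPs in the endoplasmic reticulum, of 0.25 (−0.02 to 0.52). Npc1l1, a transporter that takes up cholesterol, was the 1 member with a negative value, −0.05 (−0.24 to 0.15).

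The list's difference was larger at 1 week. Its median was 0.43 at normal and 0.46 at high protein after 1 week, and 0.13 and 0.07 after 12 weeks. Among its 21 genes 5 had an interaction of fat with week at an unadjusted p under 0.05, all toward a smaller difference at 12 weeks, where 2.23% of all genes had one in either direction. Hsd17b7, a sterol 3-ketoreductase, showed this most clearly, with 9.83 and 10.24 in the HF pools of 1 week against 9.22 and 9.58 with LF, and 9.46 and 9.85 against 9.40 and 9.73 after 12 weeks. Its HF difference was 0.54 log2 units smaller at the later time (SE 0.12, adjusted p of limma 1.00), so the interaction did not pass the test. With the 12-week pools alone 1 member had an unadjusted p under 0.05, with the 1-week pools alone 15, and without covariates 8. Over all 19938 genes these 3 fits gave 206, 597 and 450 such genes, so the 12-week fit gave fewer throughout. With the NP pools alone 10 members had an unadjusted p under 0.05 (median 0.34) and with the HP pools alone 2 (median 0.24). Over all genes those 2 fits gave 789 and 733. The 5 interactions with week became 2 without either HF pool of 1 week or the LF-HP pool of 12 weeks.

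**Figure D2:**
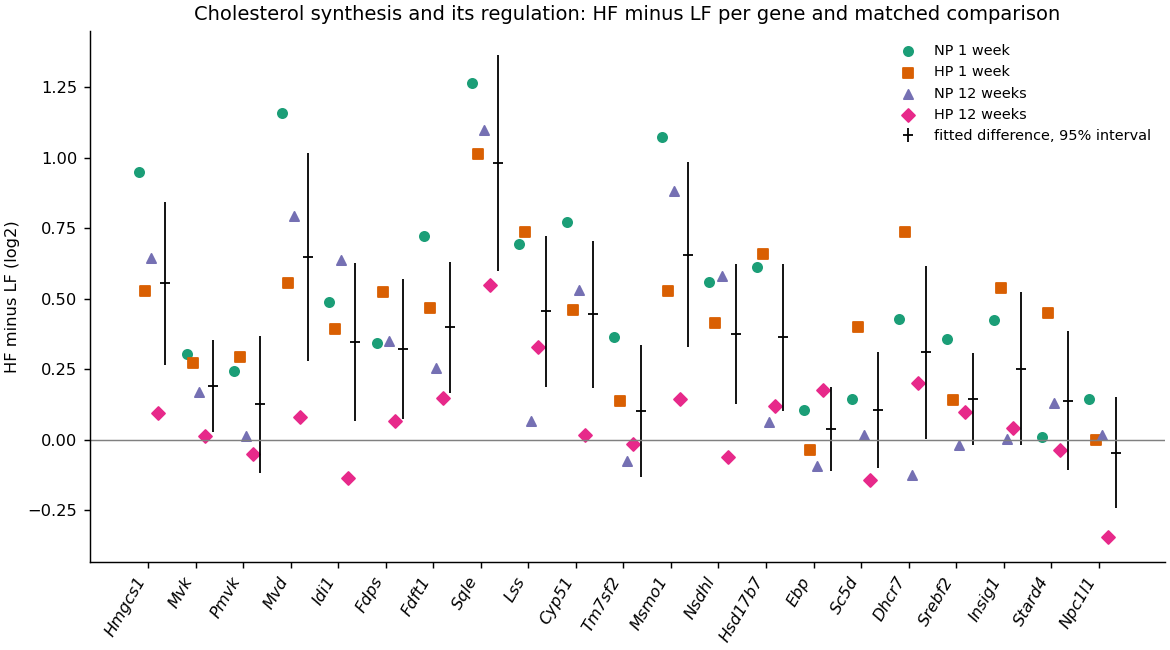
HF minus LF difference in log2 units (vertical axis) of the 21 measured genes of the cholesterol list, with 1 symbol per matched comparison and the fitted difference with its 95% interval as a dash and line. Differences of 1 week (circles and squares) were mostly larger than those of 12 weeks, and 20 of 21 fitted differences were above 0.

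As these enzymes shared a sign, their promoters were read from RefSeq sequence of build GRCm38.p6, 250 bases before to 50 after the start site. A promoter was given for 17 of the 21 measured members. The letters CCAAT, the core bound by the factor NF-Y, which cooperates with SREBPs, were present on one strand or the other in 17 of 17, against 41.7% of the 15614 tested genes with a promoter and 42.4% of those above the median level. In the unfolded protein response list, read below, 15 of 17 promoters held CCAAT as well (88.2%). The stretch around the match furthest upstream is shown for 5 enzymes of the cholesterol list, each in the direction of its gene. The match is in capitals (ATTGG where the other strand reads CCAAT).
Hmgcs1 (chr13:119690101-119690143, plus strand): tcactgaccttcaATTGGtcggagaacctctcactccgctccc
Mvd (chr8:122443453-122443507, minus strand): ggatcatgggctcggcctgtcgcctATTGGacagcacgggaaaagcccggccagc
Msmo1 (chr8:64733709-64733763, minus strand): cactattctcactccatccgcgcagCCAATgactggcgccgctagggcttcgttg
Cyp51 (chr5:4104698-4104751, minus strand): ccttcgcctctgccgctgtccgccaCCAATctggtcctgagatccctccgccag
Lss (chr10:76531518-76531572, plus strand): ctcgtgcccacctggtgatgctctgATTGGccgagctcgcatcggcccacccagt

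Such a match is a description of the sequence and was not tested as a site. The match began 60 bases before the start site in Mvd and 62 in Lss, 29 in Cyp51, 160 in Msmo1 and 237 in Hmgcs1, so its place varied between these promoters.

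Chaperones of the endoplasmic reticulum were another group with a positive median. Of 20 measured genes of the unfolded protein response 5 were higher and 0 lower at an unadjusted p under 0.05, against a background of 1.8% higher and 1.53% lower over all genes. The list had a median difference of 0.21. Sdf2l1, a component of the chaperone complex around BiP, read 10.25, 10.07, 10.19 and 9.81 with HF and 9.45, 9.98, 9.04 and 9.26 with LF (HF-NP, HF-HP, HF-NP and HF-HP order as before). All HF pools but the HF-HP pool of 12 weeks exceeded every LF value, and the difference was 0.64 ± 0.16. Creld2, another factor of protein folding in the endoplasmic reticulum, differed by 0.58 ± 0.18, Hyou1 by 0.27 ± 0.09, and Hspa5, which encodes BiP itself, by 0.22 ± 0.09. Syvn1, the ubiquitin ligase that removes misfolded proteins from that compartment, lay outside the list and differed by 0.50 ± 0.14.

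The values of this group were larger at normal protein. Its median was 0.27 and 0.48 in the NP comparisons of 1 and 12 weeks, and −0.04 and 0.12 in the HP comparisons. An interaction of fat with protein at an unadjusted p under 0.05 was found in 9 of its 20 genes, all toward a smaller difference at high protein, where 7.02% of all genes had one. For Creld2 the HF pools read 11.00 and 10.87 at normal protein against 10.20 and 9.69 with LF, and 10.49 and 10.22 at high protein against 10.52 and 9.88. Its HF difference was thus 0.84 smaller at high protein. The count of 5 fell to 2 without the LF-NP or the HF-NP pool of either week and lay at 4 without a 12-week HP pool, at 11 without the LF-HP and at 9 with the HF-HP pool of 1 week left out. The 9 interactions became 3 without the LF-NP pool of 12 weeks, 4 without the HF-NP pool of 12 weeks or the LF-HP pool of 1 week, and 5 with the HF-HP pool of 1 week left out.

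Of these 20 genes 17 had a promoter. The letters CCAAT followed 9 bases on by CCACG, known as the endoplasmic reticulum stress element, were found on either strand in 7 of the 17, against 0.134% of the tested genes with a promoter and 0 of the 17 cholesterol genes. The element is bound by ATF6 together with NF-Y. The 7 stretches are shown in the direction of each gene, with the element in capitals.
Hspa5 (chr2:34772010-34772058, plus strand): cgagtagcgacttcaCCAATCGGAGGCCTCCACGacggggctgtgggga
Dnajc3 (chr14:118937812-118937860, plus strand): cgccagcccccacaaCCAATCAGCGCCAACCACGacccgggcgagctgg
Pdia6 (chr12:17266476-17266524, plus strand): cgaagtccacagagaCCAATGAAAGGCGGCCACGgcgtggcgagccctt
Hsp90b1 (chr10:86705623-86705671, minus strand): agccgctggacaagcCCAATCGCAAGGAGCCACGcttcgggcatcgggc
Calr (chr8:84847060-84847108, minus strand): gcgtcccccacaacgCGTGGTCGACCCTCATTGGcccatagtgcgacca
Canx (chr11:50325785-50325833, minus strand): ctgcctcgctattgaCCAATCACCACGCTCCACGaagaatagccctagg
Creld2 (chr15:88819505-88819553, plus strand): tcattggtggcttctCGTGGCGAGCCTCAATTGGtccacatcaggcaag

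In Calr and Creld2 the element lies on the opposite strand, so the printed run starts with CGTGG. Creld2 and Hspa5 hold the element, while Sdf2l1, with the largest difference of the list, holds no such match in this window.

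Some genes that turn sugar into fat had lower values with HF, by small amounts. Srebf1, which encodes SREBP-1, read 10.44, 10.04, 10.60 and 10.15 in the HF pools and 10.90, 10.08, 11.06 and 10.93 in the LF pools. Each HF pool lay below its partner, by 0.04 in the HP comparison of 1 week and by 0.46 or more in the others, and the difference was −0.44 ± 0.12. The LF-HP pool of 1 week was as low as the HF pools. Mlxipl, the gene of ChREBP, differed by −0.18 ± 0.07. Thrsp (Spot 14), a lipogenic gene that answers to carbohydrate and thyroid hormone, differed by −0.31 ± 0.11, with −0.11 and −0.02 at normal protein and −0.64 and −0.46 at high protein. These were the 3 of 12 measured lipogenic regulators with an unadjusted p under 0.05, all lower (background 1.53%), and the list's median was −0.07. The count was 1 without either LF-HP pool or the HF-HP pool of 12 weeks.

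Of 30 measured genes of sugar entry, glycolysis and fructose use 4 were lower and 1 (Pdk4) higher at an unadjusted p under 0.05. Over all genes 1.53% were lower and 1.8% higher, and the list median was 0.01. With the 12-week HF-HP pool left out 7 were lower. Khk, the fructose kinase, read 10.85, 10.18, 11.03 and 10.44 with HF and 11.17, 10.45, 11.24 and 10.77 with LF. Its matched differences were close to each other, so the difference of −0.28 ± 0.06 was a steady one despite overlapping groups. Slc2a2, the liver glucose transporter GLUT2, differed by −0.24 ± 0.06, Gckr, the regulator of glucokinase, by −0.19 ± 0.05, and Pdk1 by −0.20 ± 0.07. In Pdk1 every HF pool lay below every LF pool, as in 0.366% of all genes.

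Among the 17 listed genes of fatty acid synthesis and triglyceride assembly 2 were lower at an unadjusted p under 0.05 (background 1.53%) and 0 higher, with a median of −0.03. The count of lower genes was 1 without either NP pool of 1 week or the LF-HP pool of 12 weeks. Elovl6, which lengthens palmitate, differed by −0.25 ± 0.07, and Acaca, the first committed enzyme of fatty acid synthesis, by −0.19 ± 0.07. Fasn, the synthase, had a difference of −0.18 with a wide interval of −0.63 to 0.27, and its LF-HP pools read 11.07 at 1 week and 12.36 at 12 weeks. Scd1, the desaturase, differed by −0.11 (−0.24 to 0.02).

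Fat handling and PPARα targets gave a mixed picture. Pdk4, which spares glucose by blocking pyruvate oxidation, read 7.93, 7.77, 7.40 and 7.55 with HF and 6.75, 7.62, 7.32 and 6.74 with LF, with one LF pool inside the HF range. The difference was 0.56 ± 0.20, carried by the NP comparison of 1 week and the HP comparison of 12 weeks. Lpl, the lipase that frees fatty acids from lipoproteins, differed by 0.51 ± 0.11, and Plin4, a lipid droplet coat protein, by 0.48 ± 0.12. Ehhadh and Cyp4a10, enzymes of peroxisomal and omega oxidation, differed by 0.45 ± 0.17 and 0.37 ± 0.13. Cd36, a fatty acid carrier, differed by 0.43 ± 0.18, with 9.03 and 9.07 in HF-NP against 8.16 and 8.26 in LF-NP pools, but 9.81 and 9.75 in HF-HP against 10.01 and 9.51 in LF-HP pools.

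The lists behind these genes differed little as groups. Of 30 measured PPARα targets outside oxidation 3 were higher and 0 lower, with a median of 0.03. Of 33 peroxisomal and omega oxidation genes 2 were higher and 0 lower, with a median of 0.07. Over all genes 1.8% were higher and 1.53% lower at the same unadjusted p under 0.05. The 3 PPARα targets became 0 without either NP pool of 1 week and 5 with the 1-week LF-HP pool left out. The 2 peroxisomal genes became 0 without the HF-NP pool of 1 week or either NP pool of 12 weeks, 1 without the LF-NP pool of 1 week or the LF-HP pool of 12 weeks, and 5 without the LF-HP pool of 1 week. Mitochondrial fatty acid oxidation had 0 of 23 genes at an unadjusted p under 0.05, with a median of 0.04, and Cpt1a, its gatekeeper, differed by −0.07 (−0.22 to 0.08). In the peroxisomal list 9 genes had an interaction of fat with protein, 8 of them toward a smaller HF difference at high protein. Over all genes 7.02% had an interaction in either direction. These 8 became 3 without the LF-NP, 4 without the HF-NP and 5 without the LF-HP pool of 1 week.

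Cyp26a1 and Fabp5 headed the 12 negative differences named above. Cyp26a1, which breaks down retinoic acid, read 5.96, 5.57, 5.70 and 5.69 with HF and 7.19, 6.38, 6.40 and 5.83 with LF. The HF values lay close together, while the LF values ran from well above them down to their range, and the difference was −0.72 ± 0.16, or 1.65-fold lower. Fabp5, a fatty acid binding protein, read 7.68, 7.56, 7.25 and 7.53 with HF and 8.62, 7.69, 8.16 and 8.06 with LF. Its groups did not overlap, and the difference was −0.63 ± 0.17. A probe set of Fabp5 left aside gave −0.66 ± 0.17.

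Further genes of the naming rule came from other functions. Rrm2, a subunit of ribonucleotide reductase, differed by −0.36 ± 0.07, Acot11, an acyl-CoA thioesterase, by −0.36 ± 0.08, and Spry4, an inhibitor of growth factor signalling, by −0.33 ± 0.08. Hamp, which encodes the iron hormone hepcidin, differed by 0.42 ± 0.12. Cxcl9, a chemokine induced by interferon gamma, differed by 0.30 ± 0.06, with the HF pool above its LF partner by 0.19 to 0.36. The list of interferon response genes did not share this direction. Of its 26 measured genes 12 differences were positive and 14 negative, with a median of −0.002. At an unadjusted p under 0.05, 1 was higher and 2 lower, where 1.8% of all genes were higher and 1.53% lower.

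**Figure D3:**
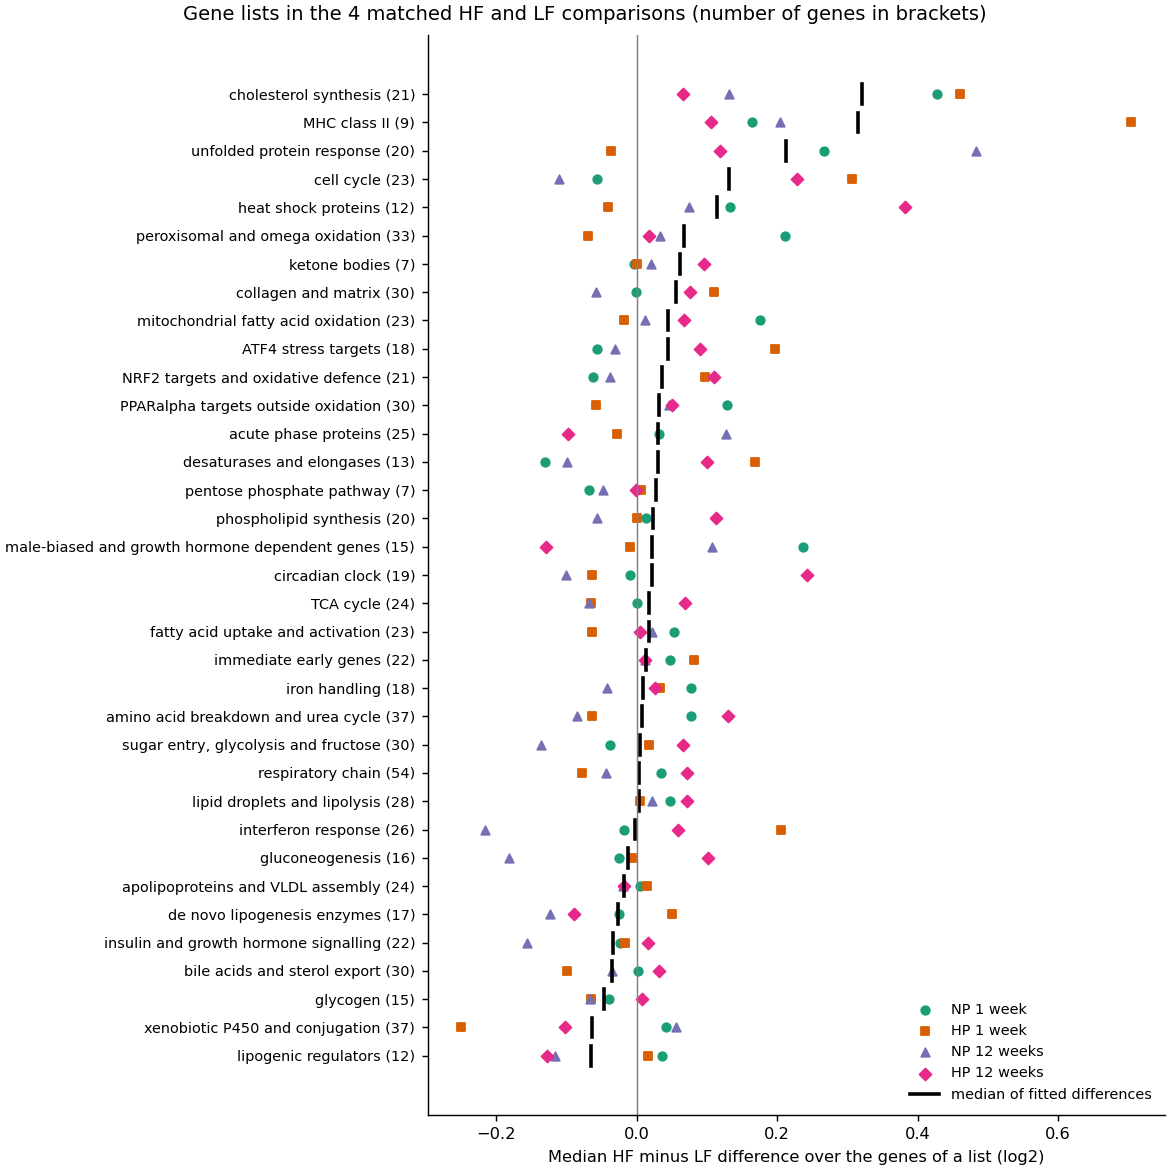
Median HF minus LF difference (log2 units, horizontal axis) over the measured genes of 35 lists in each of the 4 matched comparisons, with 1 symbol per comparison and a black bar for the median of the fitted differences. Cholesterol synthesis and MHC class II had positive medians in all 4 comparisons, the lowest being 0.066 and 0.11 (both HP, 12 weeks). The MHC class II list was added after values were seen. Lipid droplets and immediate early genes were also positive in all 4, with fitted medians of 0.00 and 0.01.

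H2-Aa, a chain of the MHC class II molecule that presents antigen, read 7.64, 7.78, 8.09 and 7.61 with HF and 7.22, 6.89, 7.84 and 7.32 with LF, a difference of 0.47 ± 0.13. After this value was seen, 11 class II genes were collected as a list, of which 9 had a value. At an unadjusted p under 0.05, 5 were higher and 0 lower (H2-Aa, H2-Ab1, H2-Eb1, Cd74 and H2-DMa), where 1.8% of all genes were higher. H2-Aa, whose value prompted the list, is among the 5, so the count is not independent of that choice. Cd74, the invariant chain, differed by 0.42 ± 0.11, H2-Ab1 by 0.46 ± 0.13 and H2-Eb1 by 0.40 ± 0.10. Ciita, the master regulator of class II genes, differed by −0.02 (95% interval −0.22 to 0.19). The median of the list was 0.31, and 0.16, 0.70, 0.20 and 0.11 in the comparisons NP and HP of 1 week and NP and HP of 12 weeks.

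Kupffer cell and macrophage markers were read beside them. Of 18 measured markers 3 were higher and 0 lower with HF, C1qb (0.46 ± 0.13), C1qc (0.38 ± 0.13) and Csf1r (0.36 ± 0.14), where 1.8% of all genes were higher. The difference was positive in 17 of the 18 markers. The log2 of the summed signal of the markers, in which the strongest markers weigh most, ran from 12.00 to 12.52 in the HF and from 11.64 to 12.49 in the LF pools. The part of macrophage RNA in the class II difference was not tested, and in bulk liver RNA a different number of cells and a different amount of RNA per cell cannot be told apart. The count of 3 was 10 without the LF-NP pool of 12 weeks, 9 without the HF-NP pool of 1 week, 5 without the HF-NP pool of 12 weeks, 2 without either HP pool of 1 week and 1 without either HP pool of 12 weeks. That of the class II list was 4 or 5 whichever pool was left out. The class II list holds H2-Aa, whose value prompted it, so this steadiness is no separate support. Markers of hepatocytes (9 measured), stellate cells (10), endothelium (10), bile ducts (7) and neutrophils (10) had 0 genes at an unadjusted p under 0.05, and those of lymphocytes 1 higher and 1 lower of 13.

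Whether the HF difference depended on the protein level was tested with an interaction term. No gene passed at an adjusted p of 0.05, and 1400 genes lay below 0.05 before adjustment, where 5% would be 997, with 955 more positive and 445 less positive at high protein. The smallest adjusted p was 0.0538, for Gm10785, a noncoding RNA gene, which read 7.39 and 8.13 in HF-NP against 6.72 and 7.25 in LF-NP pools and 6.43 and 7.16 in HF-HP against 7.57 and 8.39 in LF-HP pools. Tuba8, an alpha-tubulin, showed the opposite pattern, with 6.07 and 5.88 in HF-NP against 6.40 and 6.61 in LF-NP pools and 9.16 and 8.90 in HF-HP against 7.62 and 7.37 in LF-HP pools. For Tuba8 the HF difference was 2.07 ± 0.18 larger at high protein, with an adjusted p of 0.139 in limma. Cdc42ep5, which binds the small GTPase Cdc42, was 1.78 ± 0.19 larger there, with an adjusted p of 0.300 in limma.

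Macrophage markers carried this pattern as a group. At normal protein their median HF difference was −0.04 after 1 week and −0.00 after 12 weeks, and at high protein 0.70 and 0.46. Of the 18 markers 11 had an interaction at an unadjusted p under 0.05, all toward a larger HF difference at high protein, against the background of 7.02%. Adgre1, which encodes F4/80, read 7.36 and 7.63 in HF-NP, 7.42 and 7.68 in LF-NP, 7.69 and 7.85 in HF-HP, and 6.84 and 6.94 in LF-HP pools. Within each week the LF-HP pool was the lowest and the HF-HP pool the highest. Over the whole list the log2 of the summed signal was lowest in the LF-HP pool of 1 week (11.64). Its LF-HP pool of 12 weeks (12.00) was level with the LF-NP and HF-NP pools of 1 week (11.99 and 12.00). The HF-HP pool of 1 week (12.40) lay above both NP pools of that week. At 12 weeks the HF-HP pool (12.48) was level with the LF-NP and HF-NP pools (12.49 and 12.52). The number of markers with an interaction lay between 6, without the LF-NP pool of 12 weeks, and 15, without the HF-HP pool of 12 weeks. It was 7 without the HF-NP pool of 1 week. Markers of endothelial and stellate cells had medians of the same sign. Endothelial markers had a median interaction of 0.28, with 2 of 10 at an unadjusted p under 0.05 and 9 of 10 HF differences positive, and their median HF difference at high protein was 0.18 after 1 week and 0.28 after 12. Those 2 became 0 without either NP pool of 12 weeks, 1 without either HP pool of 12 weeks and 4 without the LF-NP pool of 1 week. For stellate cell markers the median interaction was 0.20, with 1 of 10, and for hepatocyte markers −0.13, with 3 of 9, all negative.

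Interactions of cell cycle genes had the same sign. Of 23 measured genes 13 had an interaction at an unadjusted p under 0.05, all positive, where 7.02% of all genes had one in either direction. Their median HF differences were −0.06 and −0.11 at normal and 0.31 and 0.23 at high protein, over all 23 genes. Ccnd1, cyclin D1, read 8.68 and 8.47 in HF-NP, 8.74 and 8.64 in LF-NP, 9.50 and 8.81 in HF-HP, and 8.25 and 8.18 in LF-HP pools. Mki67, which marks dividing cells, was higher in every HF than in every LF pool, at 5.34, 5.79, 5.34 and 5.52 against 5.26, 5.31, 5.17 and 5.01. Such a separation was found in 0.341% of all genes and in 1 of these 23, and Mki67 lay below the median level over genes (5.85). For HF against LF 3 of the 23 were higher and 1 lower at an unadjusted p under 0.05. Over all genes 1.8% were higher and 1.53% lower. The lower one was Rrm2, at −0.36, the lowest difference of the list. The number with an interaction was 4 without the LF-NP pool of 12 weeks, 6 without either HF pool of 1 week and 8 without either LF-HP pool.

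**Figure D4:**
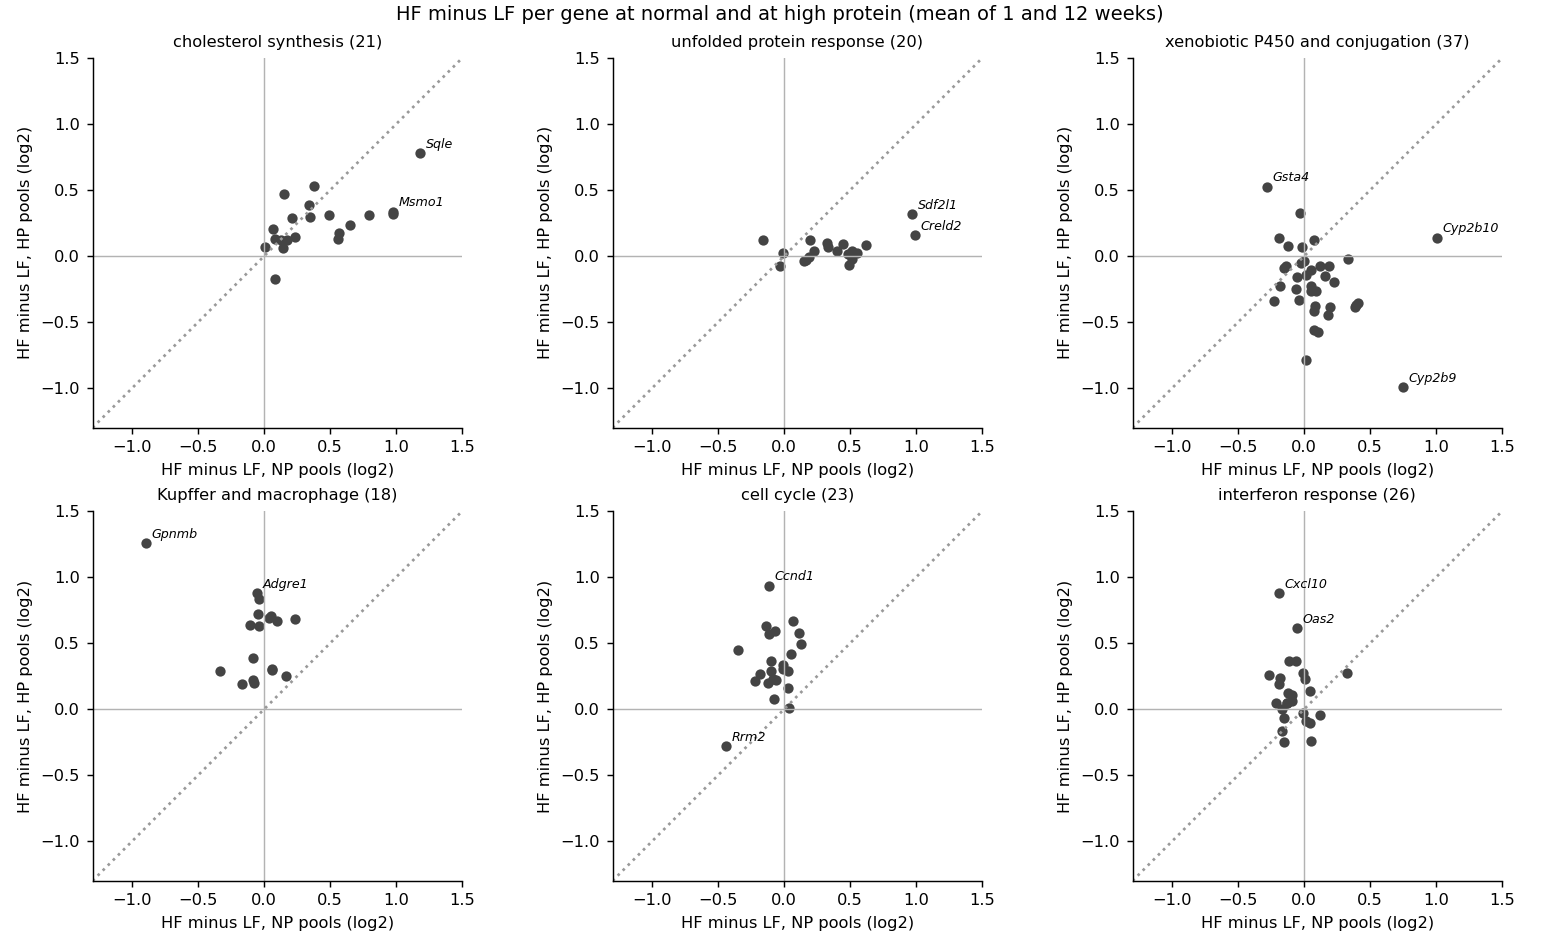
HF minus LF difference (log2 units, mean of 1 and 12 weeks) of each gene at normal protein (horizontal axis) and at high protein (vertical axis) for 6 lists, with 1 point per gene and a dotted line of equal difference. Most macrophage and cell cycle genes lie above the line, most genes of the unfolded protein response and of the P450 list below it, and the cholesterol genes with the largest values below it but positive on both axes.

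Interactions in drug and steroid metabolism mostly had the opposite sign. Of 37 measured genes of P450 and conjugating enzymes 9 had an interaction, 8 of them toward a lower HF difference at high protein, where 7.02% of all genes had one, and the median interaction was −0.28. These 8 became 5 without either LF pool of 1 week or either NP pool of 12 weeks, with medians down to −0.16, and 11 without the LF-HP pool of 12 weeks. Cyp2c54 and Cyp2c50, a pair of related P450 genes whose probes may share transcripts, had HF differences that were 0.77 and 0.76 lower at high protein. Nr1i3, the xenobiotic receptor CAR, read 11.09 and 10.82 in HF-NP against 10.59 and 10.57 in LF-NP pools, and 10.27 and 10.11 in HF-HP against 10.70 and 10.44 in LF-HP pools. These 3 genes were named after their values were seen.

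Asns, the asparagine synthetase that ATF4 induces, set the HF-HP pools apart. It read 8.78 and 7.21 in the HF-HP pools and between 5.21 and 5.99 in the other 6. The HF difference was 2.43 ± 0.46 larger at high protein, with an adjusted p of 0.541 in limma. The list of ATF4 targets had a median HF difference of 0.04. An interaction at an unadjusted p under 0.05 was found in 3 of its 18 genes, against 7.02% of all genes. The count was 1 without the LF-NP pool of 1 week and 5 with the 12-week HF-HP pool left out.

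The difference was also compared between weeks and between protein levels, which share no pool. Across the 9969 genes above the median level, which are not independent replicates, HF differences of 1 week and of 12 weeks correlated with r = 0.154, and those at normal and at high protein with r = −0.124. Of the 100 genes with the largest HF difference at 1 week 80 were positive at 12 weeks as well, where 55.1% of all these genes were, and of the 100 with the lowest 59 were negative, where 44.7% were. Of the 100 highest at normal protein 58 were positive at high protein, where 66.7% of all were. Shares of either sign also differed between single comparisons, as 70.3% of these genes had a positive HF difference in the HP comparison of 12 weeks and 29.0% in the NP comparison of 12 weeks.

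No gene passed the interaction of fat with week, where 445 genes lay below 0.05 before adjustment and 5% would be 997. Sgk2, a kinase of the liver and kidney, had the HF difference that was most clearly smaller at 12 weeks, with a change of −0.71 ± 0.15 between the weeks and levels of 9.08 and 9.33 with HF against 8.38 and 8.87 with LF at 1 week and 8.37 and 8.81 against 8.61 and 8.82 at 12 weeks. Jade2 had a more negative difference at 12 weeks, by −0.50, and the small nucleolar RNA gene Snora73b a more positive one, by 0.68.

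**Figure D5:**
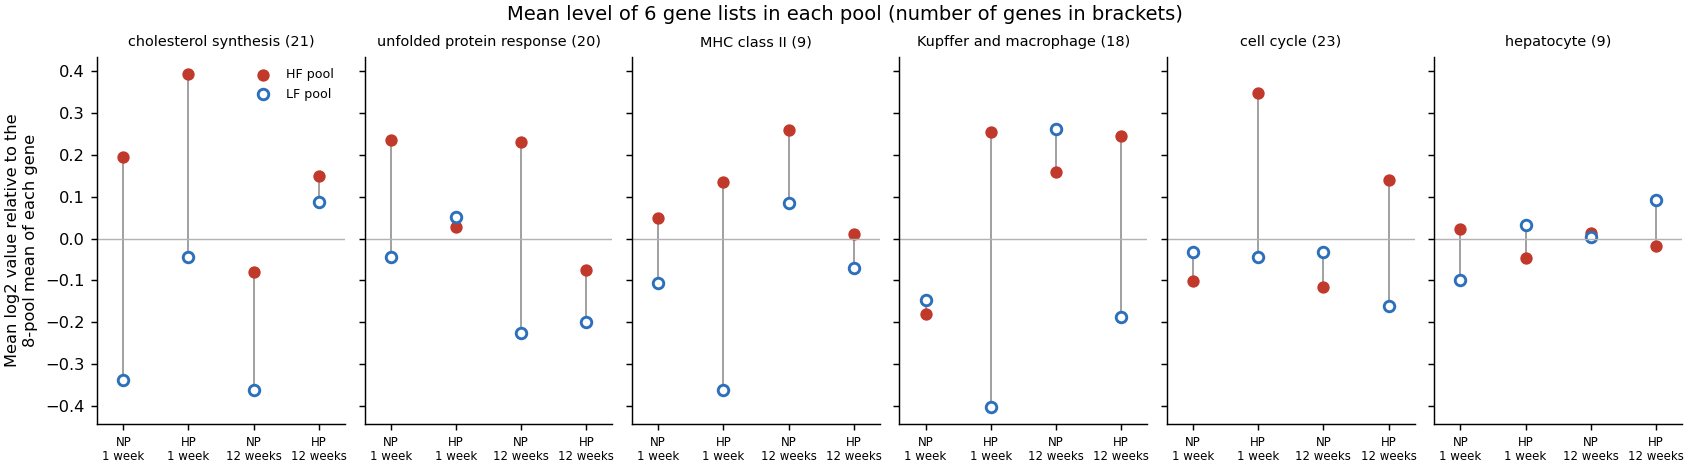
Mean log2 value over the genes of 6 lists relative to the mean of each gene over the 8 pools (vertical axis), with filled points for HF pools, open points for LF pools and a line joining the pools of the same protein level and week. The means of the cholesterol and MHC class II lists were higher with HF in all 4 comparisons, and those of the macrophage and cell cycle lists at high protein. The MHC class II list was added after values were seen.

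Several other lists held few genes with a difference. Respiratory chain (54 genes), amino acid breakdown and urea cycle (37), TCA cycle (24), gluconeogenesis (16), glycogen (15), pentose phosphate (7), phospholipid synthesis (20) and NRF2 targets (21) each had 0 genes at an unadjusted p under 0.05, with medians between −0.05 and 0.04. Bile acid genes had 1 higher and 1 lower of 30: Slco1a4, an organic anion transporter, at −0.55 ± 0.19, and Abcc3, an export pump, at 0.22 ± 0.09. Over all genes 1.8% were higher and 1.53% lower. With 1 pool left out 0 or 1 of the 30 were higher and 0 to 3 lower. An interaction of fat with protein at an unadjusted p under 0.05 was found in 9 of the 30, 4 of them positive and 5 negative, against 7.02% of all genes. With the NP pools alone 3 were higher and 4 lower, and with the HP pools alone 0 higher and 5 lower. Over all 19938 genes the NP pools gave 355 higher and 434 lower, and the HP pools 535 higher and 198 lower. The 9 became 4 without the LF-HP pool of 1 week or the HF-NP pool of 12 weeks and 5 without the LF-NP pool of 1 week or the LF-HP pool of 12 weeks. Of the NRF2 targets 4 of 21 had an interaction, against the same 7.02%, 3 of them positive, and 8 had one without the HF-HP pool of 12 weeks. Cyp7a1, the rate-limiting enzyme of bile acid synthesis, differed by −0.17 (95% interval −0.42 to 0.08). Hlf and Dbp, clock output factors, were the 2 of 19 clock genes that were lower (background 1.53%), by −0.18 ± 0.06 and −0.22 ± 0.08. The count was 1 without either NP pool of 1 week or either HP pool of 12 weeks.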

How the data were processed

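The authors pooled liver RNA of 5 mice per group, hybridised each pool to 1 array and deposited log2 expression values per probe set made by robust multiarray analysis (RMA, version not given in the sources used here), which subtracts background and equalises the distributions of all arrays. Their methods describe a remapped annotation, whereas the table holds the array's own 35556 probe sets. Values (1.71 to 14.22) were used as deposited. The arrays give no counts, and precision is limited by how few there are.

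Only probe sets that the platform annotation gives 1 gene were kept (21789; 1621 had several genes and 12146 none), and for the 999 genes with several the one of highest mean was used. Of the 1851 left aside 33.2% had a difference of the opposite sign. The fit was limma 3.58.1 under R 4.3.3 (fat, protein and week as additive terms, 4 residual degrees of freedom, prior 3.52), adjusted by Benjamini-Hochberg over 19938 genes at a threshold of 0.05, and interactions took 1 term more. With 1 pool per diet and week, the residual spread of the additive fit includes the interactions, and p-values measure the spread between these pools.

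The 44 gene lists (34 of pathways and 10 of cell markers; 866 of 950 entries had a value) and the samples compared were chosen with earlier results of these data known. Counts within lists are descriptions without a test. Named genes were the 12 highest and 12 lowest differences (mean above the median, same sign in 4 matched comparisons, unadjusted p under 0.05), for each list up to 4 members of smallest p or its first 3, and 4 genes per interaction. Any other gene was named after its values were seen, among them Ccnd1, Fasn, Cyp7a1, Srebf2, Npc1l1 and the further cholesterol, chaperone and class II genes.

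Alternatives were no covariates, a level filter, an intensity trend, array weights, centred arrays, a replicate block, the mean of probe sets, single weeks or protein levels, leaving out each pool, a threshold of 0.1 and the ratio of mean signal. The fits were tested on simulated data. Tables and figures were made with matplotlib 3.10.9 and pandas 2.3.3 under Python 3.11.15. Food intake, weights and lipids were not analysed here.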

Additional observations from a re-analysis of the deposited data

Results flagged for a closer look

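In each group of 4 pools the highest and lowest value of the 179 named genes were checked, and a value was listed where its gap to the next, relative to the group's whole range, passed Dixon's 95% limit for 4 samples. This applied to 29 of 358 groups. The 4 pools of a group differ in protein level and week and are not like samples. The limit is thus only a rule for listing values and gives no rate of flags by chance.

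Among LF pools, the LF-HP pool of 1 week stood apart most often. It was the lowest for the regulator Srebf1 (10.08), the retinol esterifying enzyme Lrat (8.43), Reln (8.83), S100a8 (3.38) and Epb42 (3.50). The same pool was the highest for Pgls (7.80), the gluconeogenic enzyme Pck1 (12.81), Abcc3 (10.17), the bile acid reductase Akr1d1 (10.53), Idh1 (11.58) and Kmo (11.77). The LF-NP pool of 12 weeks was the lowest for Apom (9.63) and Cdc42ep5 (6.11) and the highest for Pcyt1b (4.06), Krt19 (5.98) and Cela1 (6.03). The LF-HP pool of 12 weeks was the lowest for the elongase Elovl3 (11.08), Chka (7.63) and Ndufa2 (9.10).

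Among HF pools, the HF-NP pool of 12 weeks was the lowest for the leptin receptor Lepr, at 5.77 where the other 3 read 7.01 or 7.02, and for Ndufa1 (6.94), and the highest for Ttr (13.55) and Slc4a1 (5.78). The HF-NP pool of 1 week was the highest for Elovl3 (12.29) and the lowest for the complement gene C1qc (8.29). The HF-HP pool of 12 weeks was the highest for Des (6.46), Reln (9.23) and S100a8 (3.93), and that of 1 week for Col6a3 (6.60).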

How the results depend on the processing

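No gene passed the HF against LF test under any alternative run, with smallest adjusted p-values of limma between 0.370 and 1.00 and 206 to 1028 genes at an unadjusted p under 0.05. The matched pools as a replicate block gave 0 genes, with 575 at an unadjusted p under 0.05, and 12 of the 21 cholesterol genes. The labels give no replicate numbers that pair the pools, so pairs were set by protein level and week. With the fat by protein term in the fit, added after the data were seen, 888 genes had an unadjusted p under 0.05, and the counts rose to 10 for the unfolded protein response, 9 for macrophage markers and 7 for cell cycle genes.

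For the interaction of fat with protein the count of genes past the threshold was 0 in the main setting, 1 at a threshold of 0.1, 1 with an intensity trend, 2 among genes above the median level and 2 with centred arrays. Leaving out 1 pool at a time gave 0 to 1, the 1 being Dmbt1 without the LF-NP pool of 1 week. Centred arrays also gave a split of 717 more positive and 537 less positive genes in place of 955 and 445, and for the interaction with week 293 and 140 in place of 226 and 219. The interaction with week had 0 genes past the threshold throughout, with 178 to 1816 at an unadjusted p under 0.05, the lowest among genes above the median level and the highest without the HF-NP pool of 12 weeks.

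Over all named genes 186 of 3914 values had the opposite sign, and over the list medians 127 of 989. These totals include settings that cannot move the estimate in this balanced design, such as no covariates or a replicate block, with 0 sign changes. With the NP pools alone 35 of 179 named genes and 23 of 45 list medians changed sign. With the HP pools alone 16 of 179 named genes and 13 of 45 list medians did.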
